A study of Sus scrofa with 2 samples.

Results

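The cells described here are ACP5-rich gland cells of pig endometrium, the lining of the uterus, that also carried transcripts of SULT2A1, GPX3, PLA2G10 or NMB. They were chosen in library 2 by their unique molecular identifier (UMI) counts, each UMI standing for 1 captured transcript. A droplet barcode was a member if it had at least 1000 UMIs, if ACP5, RBP4 and UABP-2 made up at least 2% of them, and if SULT2A1, GPX3, PLA2G10 and NMB together had at least 3 UMIs. It also needed under 2 UMIs of GALNT15 and 0 of PTPRC. The rule found 1590 members among the 25138 barcodes of both libraries. All were in library 2, where they were 11.2% of the 14165 barcodes with at least 1000 UMIs (exact Clopper-Pearson 95% interval 10.7% to 11.8%, counting error only). Because measured values chose the members, the levels of these 9 genes are given as a description.

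Uterine glands secrete the proteins and nutrients on which a pig conceptus depends before and during its attachment, and progesterone drives that secretion. The best known product is uteroferrin, the iron-carrying acid phosphatase encoded by ACP5, which is stored and released with the uteroferrin-associated basic proteins, serpin relatives that include UABP-2. RBP4 carries retinol. Among the other genes of the rule, SULT2A1 sulfonates steroids such as dehydroepiandrosterone, GPX3 is a secreted glutathione peroxidase that removes peroxides, PLA2G10 is a secreted phospholipase that frees fatty acids from membrane lipids, and NMB encodes the bombesin-like peptide neuromedin B. GALNT15 starts mucin-type sugar chains, and PTPRC (CD45) marks leukocytes.

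The series holds 2 droplet libraries of enzyme-digested Yorkshire sow endometrium, with 1 library per group and no replicate. The design text names 1 inseminated sow at day 7 and 1 at day 13 of gestation, both 3 years old, but no sample label ties a library to a day, so library, sow and day cannot be told apart. The day 7 sow is called the pre-receptive sample there and the day 13 sow the receptive one. Library 1 held 10045 barcodes and 45388759 UMIs, and library 2 held 15093 barcodes and 87514969 UMIs. Doublet calls, droplets that look like 2 cells, covered 11.1% and 16.3% of barcodes. The libraries shared 48 barcodes, of which 3 were members; without these 3, SULT2A1 was at 383 CPM (UMIs of the gene per 1000000 UMIs of the group), GPX3 at 542 and NMB at 2605, against 383, 542 and 2602 with them. With 1 library per group there is no test of any difference, cells are not replicates, and every interval covers counting error only.

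Members were epithelial by their markers. Of 20 epithelial markers, 12 had a symbol in the files, and 1583 members (99.6%) held UMIs of at least 3 of them, with a median of 7. SPINT2, a protease inhibitor of epithelia, was found in 99.8% of members, the tight junction gene CLDN7 in 96.2%, and the keratins KRT8 and KRT18 in 88.7% and 84.8%. The gland regulator FOXA2 was at 60.5 CPM, with a UMI in 37.0% of members, against 1.28% of the collagen-rich, stromal barcodes of library 2, whose median depth was 4792 UMIs. A median member had 7137 UMIs (range 1014 to 49542) and 2851.5 detected genes, and 306 members (19.2%) were called doublets.

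The 3 secretory genes of the rule were at high level in the members, which they helped to choose. ACP5 was at 23984 CPM, with between 4 and 2111 UMIs in a member and a median of 163. RBP4 was at 13635 CPM and UABP-2 at 9893 CPM, and the 3 genes together took a median of 4.51% of a member's UMIs (2.01% to 16.5%). In library 1 no barcode of at least 1000 UMIs reached the 2% limit, and the highest share there was 0.695%. The members, 10.5% of library 2's barcodes with 16.6% of its UMIs, held 53.5% of that library's ACP5 UMIs.

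The 4 selecting genes were spread over the members very unequally. SULT2A1 was at 383 CPM (exact Poisson 95% interval 373 to 393), GPX3 at 542 CPM, PLA2G10 at 192 CPM and NMB at 2602 CPM. A SULT2A1 UMI was present in 41.8% of members, a GPX3 UMI in 90.2%, a PLA2G10 UMI in 60.2% and an NMB UMI in 94.3%. After each barcode was thinned to 1000 UMIs these shares were 20.9%, 42.5%, 18.2% and 67.7%. Free RNA in droplets gives UMIs in cells that do not make a transcript, and the thinned shares in the PTPRC-positive barcodes (median 2699 UMIs) were 1.79% for SULT2A1, 4.01% for GPX3, 1.02% for PLA2G10 and 14.5% for NMB. Before thinning, the shares in the collagen-rich barcodes were 5.13%, 15.5%, 7.77% and 35.2% in the same order. These genes chose the members, so the gap to other barcodes is a description. Members held 68.6% of library 2's SULT2A1 UMIs, 55.2% of its GPX3, 55.4% of its PLA2G10 and 58.3% of its NMB UMIs.

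**Figure D1:**
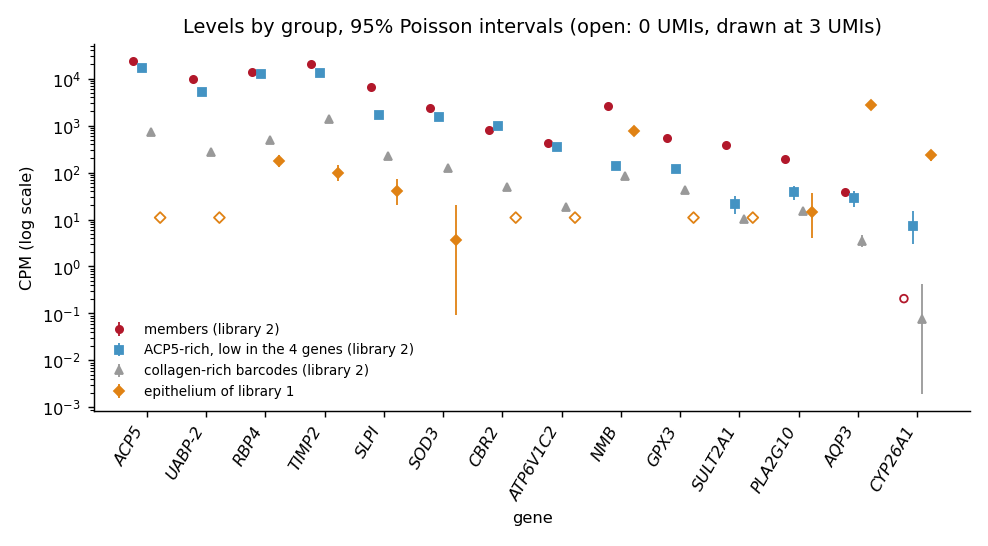
Level of 14 genes (x axis) in 4 groups of barcodes, in CPM on a log scale, with exact 95% Poisson intervals; open symbols are 0 UMIs, drawn at 3 UMIs. Members have 383 CPM of SULT2A1 and 20437 CPM of TIMP2, collagen-rich barcodes of library 2 have 10.2 and 1383, and the epithelium of library 1 has 2748 CPM of AQP3 against 38.4 in members.

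NMB supplied 70.0% of the members' UMIs of the 4 genes, while GPX3 supplied 14.6%, SULT2A1 10.3% and PLA2G10 5.16%. Without NMB, 338 members would have had under 3 UMIs, and without SULT2A1 and GPX3, 233 would. There were 99 members with neither a SULT2A1 nor a GPX3 UMI, 607 with both, and 464 with all 4 genes. Both genes of the name, SULT2A1 and GPX3, were therefore detected in a minority of members, 38.2%.

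The summed UMIs of the 4 genes ran from 3 to 523 with a median of 18, and the limit fell inside a continuous range. The 91 barcodes at exactly 3 UMIs had 16158 CPM of ACP5 and 4985 of UABP-2, and the 106 barcodes at 2 UMIs, just outside, had 16577 and 5177. The limit on GALNT15 also divided alike barcodes, with 306 CPM of SULT2A1 in the 465 members at 1 UMI and 253 CPM in the 171 otherwise qualifying barcodes at 2 UMIs. At the secretory limit, 40.8% of the 49 barcodes with 2% to 2.2% were called doublets, as were 42.0% of the 69 barcodes with 1.8% to 2%. By depth, SULT2A1 was at 581, 491, 300 and 358 CPM in 4 equal bins of members from fewest to most UMIs, and GPX3 at 847, 702, 534 and 444. Doublet calls went the other way, from 2.76% through 16.1% and 27.0% to 31.2%, and their part in these differences was not tested.

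**Figure D2:**
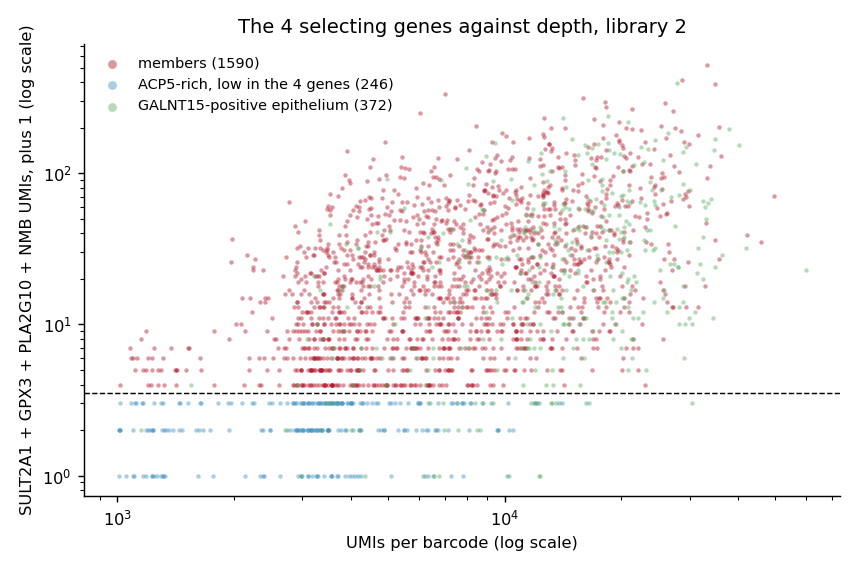
Summed UMIs of the 4 selecting genes plus 1 (y, log scale) against UMIs per barcode (x, log scale) for members, ACP5-rich barcodes low in the 4 genes, and GALNT15-positive epithelium of library 2; the dashed line is the limit between 2 and 3 UMIs. The 1590 members run up to 523 UMIs with no gap above the line, and the 246 barcodes below it lie at lower depth, with a median of 3322.5 UMIs against 7137.

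After ACP5, the most abundant transcripts of the members were FTH1, the ferritin heavy chain, at 22213 CPM, and TIMP2, an inhibitor of matrix metalloproteinases, at 20437 CPM. UBB, a ubiquitin gene, was at 11633 CPM, SAT1, an enzyme of polyamine breakdown, at 9158, ISG12 at 8399 and SLPI, a secreted inhibitor of leukocyte proteases, at 6591. Below the 20 highest stood SOD3, the extracellular superoxide dismutase, at 2379 CPM, CBR2, a carbonyl reductase, at 808 CPM and ATP6V1C2, a subunit of the proton pump of acidic compartments, at 435 CPM. In the other barcodes of library 2, TIMP2 was at 2730 CPM, SLPI at 522, SOD3 at 279, CBR2 at 368 and ATP6V1C2 at 92.5. These 11955 barcodes of at least 1000 UMIs leave out ACP5-rich barcodes without PTPRC and GALNT15-positive epithelium. In the same order, GALNT15-positive epithelium had 17373, 4304, 2101, 849 and 349 CPM. The ACP5-rich barcodes low in the 4 genes had 13155, 1714, 1537, 995 and 358 CPM. Immediate early genes were also among the 20 highest, with FOS at 5638 CPM and ATF3 at 4719 CPM; these genes respond to tissue dissociation, and the other barcodes had 3959 and 2207 CPM.

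Over 1590 members, Spearman's rho between shares of UMIs was 0.77 for ACP5 with UABP-2, 0.71 for ACP5 with TIMP2 and 0.76 for UABP-2 with SLPI. It was 0.25 for ACP5 with RBP4 and -0.29 for SLPI with CBR2. These are descriptions of barcodes from 1 library that share depth and a common denominator, and the sum of ACP5, UABP-2 and RBP4 chose the barcodes.

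The ACP5-rich barcodes were clustered on other genes, leaving out the 9 genes of the rule, and the members fell into all 11 clusters. Cluster 0 held 350 of the 1590 members and the most SULT2A1, at 1268 CPM (1224 to 1313) over its 383 barcodes. The next, cluster 8, had 291 CPM, and cluster 4 had the least, 53.5 CPM. GPX3 was also highest in cluster 0, at 1097 CPM, followed by cluster 2 at 670. PLA2G10 was at 442 CPM there and at most 182 elsewhere, and NMB at 4528 CPM, followed by cluster 2 at 3286. ACP5 stood at 40310 CPM and UABP-2 at 18190 in cluster 0, against 15950 and 4978 in cluster 4. Members in cluster 0 had 15.5% of all members' UMIs and held 52.6% of their SULT2A1 UMIs, 35.8% of PLA2G10, 32.1% of GPX3 and 27.4% of NMB.

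The genes that led cluster 0, which defined it and so are no finding, were EDNRB, the endothelin B receptor, IHH, the hedgehog ligand of uterine epithelium, SLPI, FXYD2, MGST2, SLC45A4, A4GALT, F3, C6orf52 and MDH1. Clusters 1, 2, 4 and 5 were other epithelial groups with 170, 166, 211 and 242 members. Cluster 1 was led by BMPR1B and SLC24A4, cluster 2 by SLC1A2 and NHS, cluster 4 by CES3 and GREB1L, and cluster 5 by CD14 and IGFBP2. At a finer resolution of 1 the high SULT2A1 barcodes divided, and the highest cluster held 13.1% of members.

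**Figure D3:**
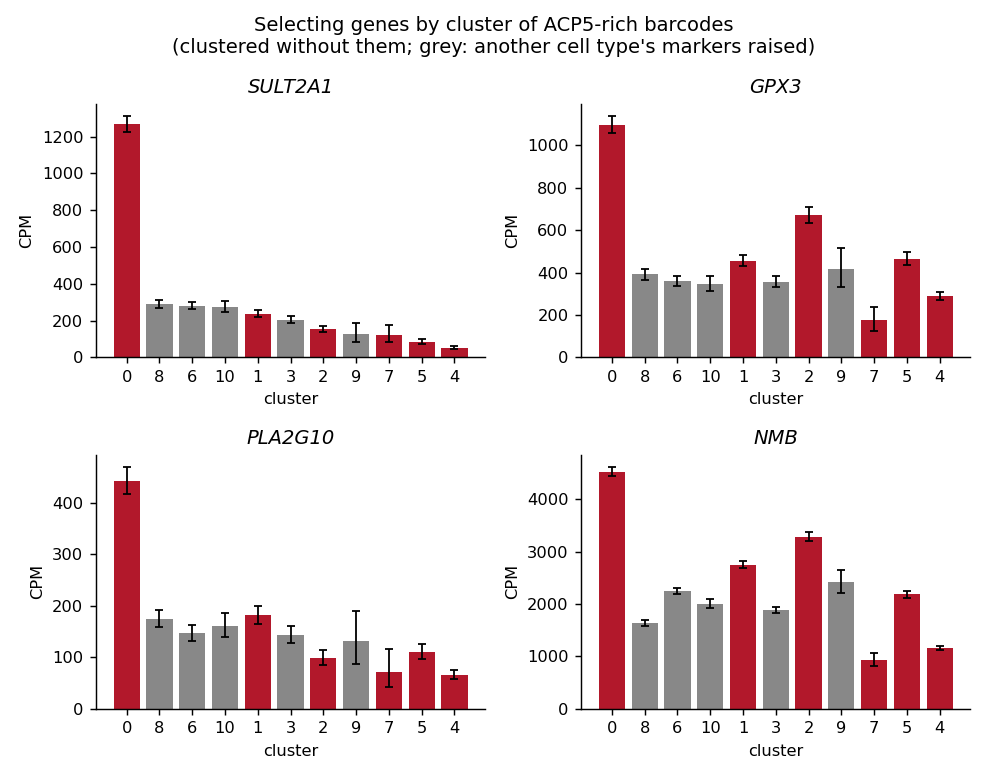
Level of SULT2A1, GPX3, PLA2G10 and NMB (y, CPM) in the 11 clusters of ACP5-rich barcodes, ordered by SULT2A1 and clustered without these genes; error bars are exact 95% Poisson intervals and grey bars are clusters with raised markers of another cell type. Cluster 0 is highest for all 4 genes, at 1268, 1097, 442 and 4528 CPM.

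Many members carried the markers of a second cell type. In 5 clusters a marker list of another type was at least 2 times its level over all ACP5-rich barcodes, a limit set after the data were seen. Cluster 3 had the stromal list raised (8615 CPM), cluster 6 the endothelial list (2010), cluster 8 the ciliated list (827), cluster 9 the lymphocyte and myeloid lists (2387 and 591) and cluster 10 the muscle and pericyte list (5564). These clusters held 433 members (27.2%), of which 290 (67.0%) were called doublets, and they had a median of 11849 UMIs. The other 1157 members had 16 called doublets (1.38%) and a median of 5759 UMIs. Among the latter, stromal markers summed to 356 CPM, endothelial to 115, muscle and pericyte to 87.0, ciliated to 18.3 and lymphocyte to 28.3. Cluster 8 had the fewest doublet calls of these 5 clusters, 20.6%, still above the 16.3% of all library 2 barcodes. It had the highest median depth of the 11 clusters, 14698 UMIs, and the cilia gene SPAG6 was among its leading genes.

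**Figure D4:**
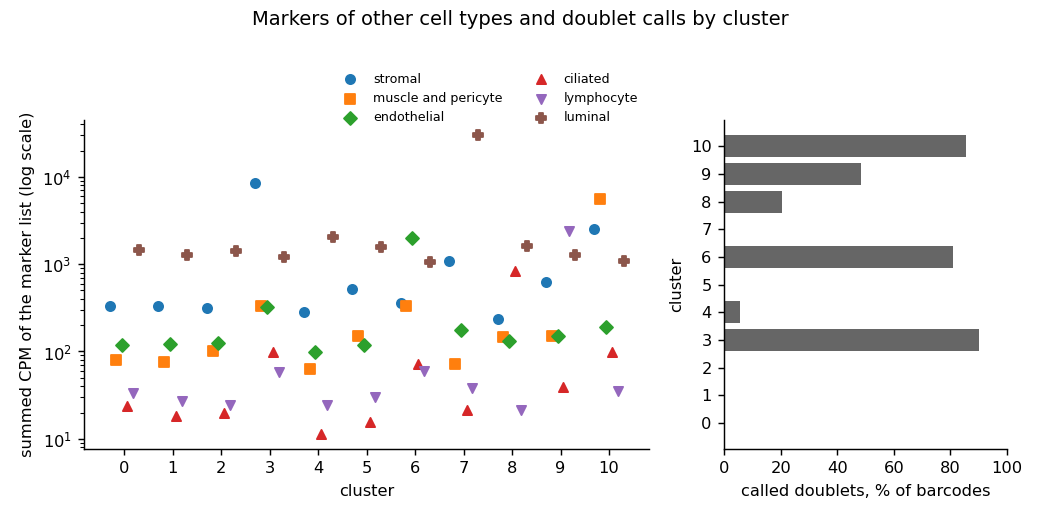
Left, summed level of 6 marker lists (y, CPM, log scale) in the 11 clusters (x); right, called doublets as a percentage of the barcodes of each cluster. Clusters 3, 6 and 10 have raised stromal, endothelial or muscle markers with 90.2%, 80.9% and 85.4% doublet calls, and cluster 7 stands out for luminal markers, at 29948 CPM, with none.

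Cluster 7 held 18 members with a different secretory profile. Its 28 barcodes had 24977 CPM of RBP4 but 4390 of ACP5 and 1660 of UABP-2. Luminal epithelium markers summed to 29948 CPM, and the leading genes included UPTI, the uterine plasmin/trypsin inhibitor, NMU, which encodes neuromedin U, and AGR2, a protein-folding enzyme of secretory epithelia. These few barcodes supplied 92.2% of the members' UPTI UMIs, 91.0% of their NMU and 57.5% of their SPP1 (osteopontin). Without the cluster, members had 33.5 CPM of UPTI in place of 423, and 3.15 CPM of NMU in place of 34.4.

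To ask which genes went with SULT2A1 itself, the 279 members with at least 3 SULT2A1 UMIs were set against the 695 with none, in the clusters without raised markers of another type. A further 183 had 1 or 2 UMIs. The sides had medians of 6569 and 5457 UMIs. Of 6702 genes with a symbol and at least 30 UMIs over both sides, 84 (1.25%) were at least 2-fold higher with SULT2A1 and 129 (1.92%) at least 2-fold lower, 3.18% in all, with the 9 rule genes left out. With TMM scaling, which is computed from the bulk of genes, these counts were 107 and 95. This split was added after the data were seen, and it overlaps the clusters, since 68.8% of the SULT2A1 side and 14.1% of the other lay in cluster 0. Outside cluster 0, 62 of the 84 higher genes were measured and 35 kept the call. Of the 129 lower genes, 118 were measured there and 53 kept it. After thinning to 1000 UMIs, 20 and 25 were measured, and 18 and 16 kept the call.

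In members with SULT2A1, EDNRB was at 229 CPM against 33.4, a log2 ratio of 2.78 (2.53 to 3.04), and the membrane organiser TSPAN5 at 79.6 against 16.7 CPM (2.25). HPGD, which inactivates prostaglandins, was at 52.2 against 11.2 CPM (2.22), and IHH at 92.8 against 27.7 CPM (1.75). An HPGD UMI was present in only 6.91% of the 1157 members in clusters without raised markers of another type. Of the 200 HPGD UMIs there, 100 were in cluster 0, and 1 barcode outside it held 31. SLPI was at 14603 against 4152 CPM (1.81), and the lipocalin SAL1 at 298 against 105 CPM. SAL1 was not particular to members, which had 173 CPM and a UMI in 35.6% of barcodes. ACP5-rich barcodes low in the 4 genes had 218 CPM, and the other barcodes of library 2 had 624. The cytosolic malate dehydrogenase MDH1 was at 608 against 221 CPM (1.46), GPER1, a membrane estrogen receptor, at 152 against 67.3, and the sodium pump regulator FXYD2 at 113 against 49.4 (1.19).

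Among members outside cluster 0 the log2 ratio was 1.56 for EDNRB, 2.49 for TSPAN5, 0.69 for IHH, 1.24 for SLPI, 1.96 for SAL1, 1.16 for MDH1, 1.09 for GPER1 and 0.82 for FXYD2. In barcodes thinned to 1000 UMIs EDNRB was at 2.45 and SLPI at 1.65. The lowest gene was FH, the fumarate hydratase of the citric acid cycle, at 77.9 against 254 CPM (log2 ratio -1.71, and -1.51 outside cluster 0). NCALD, a calcium sensor, was at 125 against 310 CPM (-1.31), the Notch ligand DLL4 at 23.2 against 63.5 (-1.45), and the R-spondin receptor LGR4 at 135 against 269.

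Members without SULT2A1 had to reach 3 UMIs through GPX3, PLA2G10 and NMB, so the ratios of these rule genes are in part set by the rule. PLA2G10 was at 418 against 110 CPM, a log2 ratio of 1.92 (1.77 to 2.07), UABP-2 at 17003 against 8403 (1.02) and NMB at 4193 against 2243 (0.90). GPX3 was at 896 against 529 CPM (0.76) and RBP4 at 17788 against 14098 (0.34). Outside cluster 0 the ratio was 1.49 for PLA2G10 and 0.30 for GPX3. In all ACP5-rich barcodes thinned to 1000 UMIs, the 369 with a SULT2A1 UMI had 425 CPM of PLA2G10 and 862 of GPX3, and the 1795 without had 135 and 482.

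Over all genes the median log2 ratio in the SULT2A1 split was -0.11, and 3.18% passed 2-fold in either direction. In the phospholipase and prostaglandin list 3 of 20 measured genes were at least 2-fold higher and 0 lower (median 0.20), with HPGD the largest. Of 36 antioxidant and carbonyl enzymes 2 were higher and 0 lower (median -0.09), among them MGST2, a glutathione transferase, at 164 against 80.0 CPM, while SOD3 had a log2 ratio of 0.64 and CBR2 of -0.79. None of 11 genes of steroid and sulfate metabolism passed 2-fold, and PAPSS1, which makes the sulfate donor that SULT2A1 uses, was at 128 against 120 CPM (0.10). The endoplasmic reticulum list had 0 of 50 genes past 2-fold (median 0.07), with the chaperone HSPA5 at 888 against 550 CPM (0.69). In the iron list 1 of 16 was higher (median 0.22), and the transferrin receptor TFRC was at 346 against 183 CPM (0.92). Stress genes had 3 of 37 higher (median 0.34), among them DNAJB1 at 1372 against 682 CPM. The median of that list was 0.07 outside cluster 0.

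The estrogen receptor ESR1 had 152 against 190 CPM in this split (-0.33), PGR, the progesterone receptor, 21.5 against 30.1 (-0.48) and FOXA2 64.6 against 64.5 (0.00). IGFBP2, a binding protein of insulin-like growth factors, was at 159 against 297 CPM (-0.90), ALDH1A1, which makes retinoic acid, at 134 against 253 (-0.92), and the lysosomal protease CTSB at 31.9 against 59.2 (-0.89). No gene of the 46 measured in the lysosome list passed 2-fold.

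A second division was by NMB. The 556 members with at least 10 NMB UMIs were set against the 280 with under 3, in the same clusters and again after the data were seen, with 321 between. Depth differed, with medians of 7462.5 and 3976 UMIs. NMB-high members had more SLPI, at 10032 against 2934 CPM (log2 ratio 1.77, interval 1.73 to 1.82), and more UABP-2, at 13266 against 7033 (0.92). GPX3 was at 690 against 660 CPM (0.07, -0.04 to 0.17), PLA2G10 at 227 against 206 (0.14, -0.04 to 0.33) and SULT2A1 at 517 against 368 (0.49). Members with NMB under 3 had to reach 3 UMIs through these genes, so their ratios are in part set by the rule. Over all ACP5-rich barcodes thinned to 1000 UMIs, the 1322 with an NMB UMI had 613 CPM of GPX3, 213 of PLA2G10 and 455 of SULT2A1, and the 842 without had 444, 140 and 201. Of 6583 genes measured, 90 (1.37%) were at least 2-fold higher and 43 (0.653%) lower, 2.02% in all, or 132 and 25 with TMM scaling. In barcodes thinned to 1000 UMIs, 45 were higher and 39 lower, but these were mostly different genes. Of the 90 higher genes, 4 were measured after thinning and 3 kept the call. Of the 43 lower genes, 2 were measured and 0 kept it.

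Beside SLPI, the genes higher in NMB-high members included GPER1 (111 against 59.3 CPM, 0.91), MDH1 (410 against 222 CPM, 0.88) and TFRC (281 against 176 CPM, 0.67). Among genes of at least 50 CPM the largest ratios, of NMU (4.14) and UPTI (3.76), rested on cluster 7: without it UPTI was at 0.22, and the complement protease CFD, at 1.14 with it, was at 0.27. EDNRB was at 0.97, but at 0.02 outside cluster 0. FXYD2 was lower in NMB-high members, at 62.2 against 131 CPM (-1.07), on a side that the rule admitted through SULT2A1, GPX3 and PLA2G10. The metallothioneins MT1A and MT1D, zinc and copper binding proteins whose near-identical copies counting may split, were at 626 against 1159 CPM (-0.89) and 974 against 1591 CPM (-0.71).

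The 2 genes were also found apart. There were 51 members with at least 3 SULT2A1 UMIs and under 3 of NMB, 80.4% of them in cluster 0, with 1969 CPM of SULT2A1, 1005 of GPX3 and 476 of PLA2G10. Another 296 had at least 10 NMB UMIs and no SULT2A1, 17.9% of them in cluster 0, with 3916 CPM of NMB, 555 of GPX3 and 111 of PLA2G10. Their medians were 3472 and 6680.5 UMIs, and the part of depth in these sets was not tested.

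**Figure D5:**
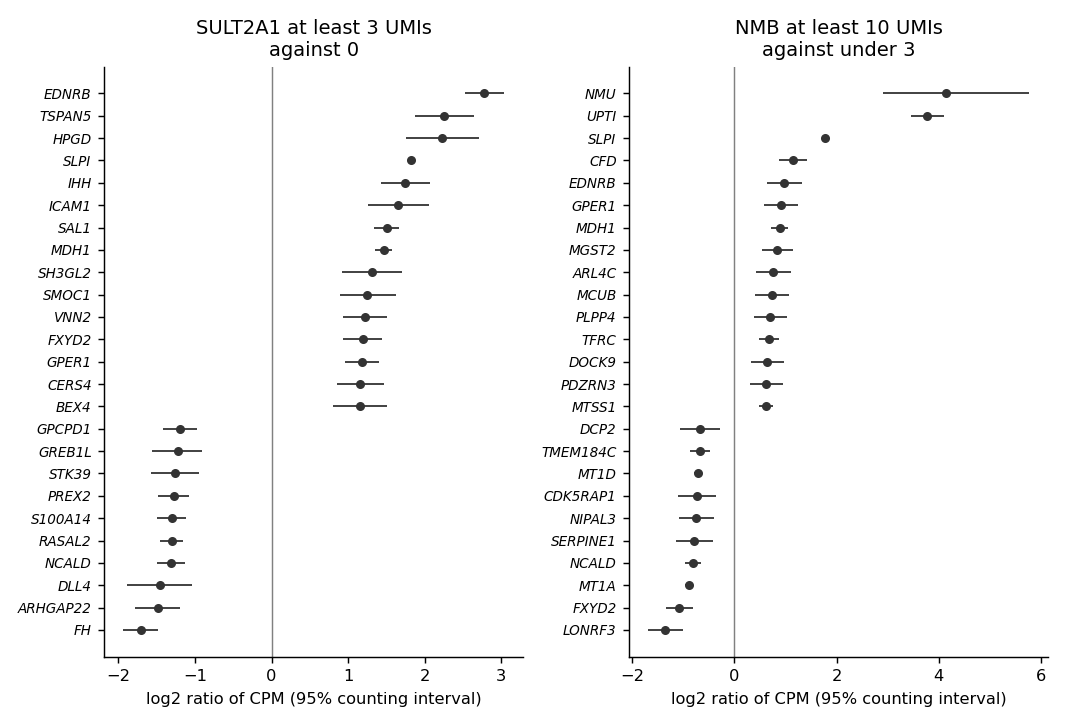
Log2 ratio of CPM (x) with 95% counting intervals for the 15 highest and 10 lowest genes of at least 50 CPM in 2 splits of members outside the clusters with another type's markers; rule genes are left out. SLPI is high in both splits (1.81 and 1.77), EDNRB leads the SULT2A1 split (2.78), and FXYD2 lies at 1.19 in one and -1.07 in the other.

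A first comparison group was the 246 barcodes of library 2 that met the rule except that the 4 genes had under 3 UMIs. Among genes of at least 50 CPM SLPI differed most, at 6591 CPM in members against 1714 (log2 ratio 1.94, 1.87 to 2.01). MGST2 was at 100 against 35.7 CPM (1.49), FXYD2 at 66.1 against 30.4 (1.12) and SPRY2, an inhibitor of growth factor signalling, at 239 against 120 (1.00). TIMP2 was at 20437 against 13155 CPM (0.64) and SOD3 at 2379 against 1537 (0.63), while CBR2 was at 808 against 995 (-0.30) and IGFBP2 at 228 against 380 (-0.74). ACP5 was at 16512 CPM, UABP-2 at 5073 and RBP4 at 12284 in the low barcodes. SULT2A1 there was at 21.0 CPM, with 122 of GPX3, 37.7 of PLA2G10 and 137 of NMB, as the rule fixes.

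Few abundant genes separated these 2 groups. Of 7803 genes measured, 165 (2.11%) were at least 2-fold higher in members and 156 (2%) at least 2-fold lower, 4.11% in all, but at 50 CPM or more only 6 and 7 were. Intervals excluded 0 for 97 of the 165 and 87 of the 156. TMM scaling moved the median of all genes from -0.06 to 0.05 and gave 220 higher and 108 lower. Without the clusters that carry another type's markers, an alternative chosen after seeing the data, 128 were higher and 161 lower, but only 52 of the 165 and 46 of the 156 were still among them. Endothelial markers summed to 389 CPM in members and 237 in the low barcodes, with 4 of 14 measured genes at least 2-fold higher (median 0.67). The ratios of APOA1 (1.08) and CLEC3B (1.06) turned to -0.22 and -0.36 without those clusters. SLPI was then at 1.92, MGST2 at 1.38 and FXYD2 at 1.05.

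On the low side stood AGR2 (34.6 against 94.4 CPM, -1.45) and NMU (34.4 against 73.4, -1.09), both leading genes of cluster 7, which held 18 of the members and 10 of the low barcodes. Without that cluster AGR2 turned to 1.13, NMU to -0.05 and UPTI from -0.94 to 1.94. The chemokine gene CCL2 was at 69.5 against 172 CPM (-1.31) and TFPI2, a serine protease inhibitor, at 60.5 against 145 (-1.26), and they were at -0.39 and -0.63 without the mixed clusters. NRG1, a growth factor gene, went from -1.14 to 1.14 when called doublets were left out. Of all genes 4.11% passed 2-fold in either direction. The uterine secretions had 1 of 27 genes at least 2-fold higher, the antioxidant enzymes 2 of 38, steroid and sulfate metabolism 0 of 13, and the lysosome list 0 of 48 higher and 1 lower.

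GALNT15-positive epithelium of library 2 was close to the members. It comprised 372 barcodes with at least 2 GALNT15 UMIs, at least 3 epithelial markers and no PTPRC, with a median of 14234 UMIs and 32.5% doublet calls. These barcodes had 20188 CPM of ACP5, 160 of SULT2A1, 371 of GPX3, 111 of PLA2G10 and 1902 of NMB. Among genes outside the rule, FXYD2 was higher in members at 66.1 against 30.2 CPM (1.13), as were SLPI at 6591 against 4304 (0.61), the glycolipid enzyme A4GALT at 264 against 170 (0.63) and CDO1, which oxidises cysteine, at 293 against 182 (0.69). The proprotein convertase PCSK5 was lower, at 36.7 against 71.5 CPM (-0.96). Of 7989 genes, 55 (0.688%) were at least 2-fold higher and 40 (0.501%) lower, 1.19% in all. The highest ratio, of UPTI at 423 against 9.93 CPM (5.41), was 1.75 without cluster 7.

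Markers of other cell types also differed in this comparison, and their part in it was not tested. Stromal markers summed to 1316 CPM in members and 1866 in GALNT15-positive epithelium, and COL1A2 had a log2 ratio of -0.65. With the mixed clusters left out, 59 genes were higher and 503 lower, but this setting removes such barcodes from all members and only from those GALNT15-positive barcodes that had been clustered. The ratio of COL1A2 was -1.81 in that setting. The ratio of SULT2A1 was 1.49, but SULT2A1 helped to choose the members and not the GALNT15-positive epithelium. Its ratio is therefore in part set by the rule.

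Library 1 had few epithelial barcodes, 64 with at least 1000 UMIs, at least 3 epithelial markers and low ciliated and collagen genes. In them ACP5, UABP-2, SULT2A1 and GPX3 had 0 UMIs, with an exact Poisson upper bound of 13.5 CPM for each. RBP4 was at 179 CPM and PLA2G10 at 14.6. NMB was at 750 CPM, but 199 of its UMIs were in 1 barcode. Genes outside the rule that were far higher in members included TIMP2, at 20437 against 98.8 CPM (log2 ratio 7.69, 7.15 to 8.29), and SLPI, at 6591 against 40.3 (7.36). CBR2 and ATP6V1C2 had 0 UMIs in this epithelium, and with these counts set to 3 UMIs their log2 ratios were 6.20 and 5.31. SOD3 had 1 UMI there, or 3.66 CPM against 2379.

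In the epithelium of library 1, AQP3, a water and glycerol channel, was at 2748 CPM against 38.4 in members (-6.16). CYP26A1, which breaks down retinoic acid, had 0 UMIs in the members and 64 UMIs in library 1 epithelium, all in 1 barcode. ATP6V0D2, a proton pump subunit, was at 359 against 11.7 CPM (-4.94), and the transporter scaffold PDZK1 at 253 against 7.93 (-4.99). In the proliferation list 11 of 15 genes were at least 2-fold lower in members and 1 higher (median -2.14), with UBE2C at 2.07 against 87.8 CPM and TPX2 at 1.52 against 65.9. FOXA2 was at 60.5 in members against 121 CPM, and ESR1 at 244 against 124 (86.2 to 174). ESR1 was at 346 CPM in members of the mixed clusters. In the other members it was at 176 CPM (168 to 185), an interval that overlaps that of library 1 epithelium.

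Among the lists, gland transcription factors had 17 of 22 genes at least 2-fold higher in members and 1 lower (median 2.18), with PAX8 at 540 against 14.6 CPM (5.21, 3.85 to 7.08). Uterine secretions had 12 of 27 higher and 3 lower (median 0.72), and the iron list 6 of 19 higher and 2 lower (median -0.13), with FTH1 at 22213 against 5248 CPM. Retinoid genes had 5 of 19 higher and 8 lower (median -0.09). Over all 7783 genes, 1783 (22.9%) were higher and 1886 (24.2%) lower, 47.1% in all, with a median of -0.10, so a gene past 2-fold was common. Intervals excluded 0 for 1562 of the 1783 higher genes and for 965 of the 1886 lower genes. Counts under 3 UMIs were set to 3, and library 1 epithelium had few UMIs. A gene scarce in both groups can therefore be called lower in members. This limit also applies to the lower counts and medians of the lists in this comparison.

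Technical lists and markers of other cell types also differed in that comparison. Endothelial markers summed to 389 CPM in members against 1028, with 10 of 14 at least 2-fold lower (median -1.62). Stromal markers summed to 1316 against 589 CPM, with 5 of 12 higher and 5 lower. Library 1 epithelium was limited to under 5 UMIs of COL1A1, COL1A2, COL3A1 and DCN together, and members were not. These genes are in the stromal list, so its difference is in part set by that limit. The limit on ciliated genes also applied to library 1 epithelium only. Ribosomal protein genes took 5.31% of UMIs in members and 24.7% in library 1 epithelium, and 60 of 67 were at least 2-fold lower in members (median -2.24). Stress genes had 23 of 37 higher (median 1.87), with ATF3 at 4719 against 106 CPM, and genes with long introns 14 of 18 higher (median 2.88). Over all barcodes the ribosomal share was 13.7% in library 1 and 5.38% in library 2, and stress genes took 1.16% and 2.36%. Median depth was 3945.5 UMIs in library 1 epithelium, with 3.12% doublet calls. In barcodes thinned to 1000 UMIs the ratios of TIMP2, SLPI and AQP3 were 7.47, 7.28 and -6.09. The part of these lists in the differences was not tested.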

How the data were processed

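Single-cell RNA of 2 pig endometrium libraries was deposited as raw UMI counts per gene and barcode, made by the authors with Cell Ranger. The file headers name version 6.1.0 and the submitters' processing notes version 2.1.1. The genome build is not given in the sources used here. No barcode had under 500 UMIs. Of 26881 gene entries, 16128 had no symbol, and genes with a symbol held 73.8% of the members' UMIs.

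Counts of all barcodes of a group were added up per gene and expressed as CPM, with 95% Poisson intervals from scipy 1.17.1. Log2 ratios have exact conditional binomial intervals, and counts under 3 were set to 3. Genes with at least 30 UMIs over both groups were compared, and at least 2-fold was called. The 9 rule genes were left out of these counts. Doublets were called with Scrublet in scanpy 1.11.5 and kept. ACP5-rich barcodes were clustered without the rule genes on 2000 variable genes, 20 components and 15 neighbours (Leiden resolution 0.5). TMM factors came from edgeR 4.0.16. The calculation was tested on simulated data.

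Named genes are the rule genes, a fixed list, marker genes, the 20 highest by CPM, and genes of at least 50 CPM with the highest or lowest ratios in a comparison (15 and 10 against the low barcodes and in the splits, 10 and 10 otherwise) or in a list (up to 4). Leading genes of clusters were named as such, and any other gene was chosen after its values were seen. Members and lists were chosen with earlier results of these data known. The SULT2A1 and NMB splits, the mixed clusters and the luminal-marker cluster were defined after seeing the data. No sequence or coordinate was used here.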

Additional observations from a re-analysis of the deposited data

How the results depend on the processing

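No paired analysis was possible because each group had 1 library and no result came from a replicate test. The number of members was 922 with a secretory share of at least 4% and between 1157 and 1936 in the other settings. Against the low barcodes, the count of lower genes was 45 with at least 100 UMIs per gene, 1911 with at least 1 UMI, 1809 for a 4-gene sum of at least 5 against 0, 86 with the 4 genes at 0.05% of UMIs and 256 with barcodes weighted equally. With the low barcodes weighted to the members' depths, 363 were higher and 488 lower. Against GALNT15-positive epithelium, 26 were lower with TMM scaling, 19 higher and 4 lower with at least 100 UMIs, 99 and 63 without called doublets, 127 lower with equal weights, 155 and 93 after thinning, and 503 lower without the mixed clusters. Of the 55 genes higher there in the main setting, 9 were measured after thinning and 7 kept the call. Of the 40 lower genes, 0 were measured. Against library 1 epithelium, 939 were lower with at least 100 UMIs and 665 higher after thinning. Of the 1783 genes higher in the main setting, 1761 were measured after thinning. Only 613 of them kept the call, and 602 changed sign. In the NMB split, 25 were lower with TMM scaling and 45 higher after thinning. The highest SULT2A1 cluster held 13.1% of members at Leiden resolution 1. Of 165 higher genes against the low barcodes, 5 kept the call for a 4-gene sum of at least 5 against 0 and 126 changed sign. Only 49 barcodes, with a median of 3097 UMIs, had a sum of 0, and counts under 3 UMIs were set to 3. Through this floor a gene with few UMIs in a small group can be called lower in members. The floor also enters the counts of 1911 and 1809 lower genes, and the counts of lower genes against library 1 epithelium. With the 4 genes at 0.05% of UMIs, 19 of the 165 and 11 of the 156 lower genes changed sign. Among named genes past 2-fold, signs turned for these log2 ratios against the low barcodes: NRG1, 1.14 without doublets and 0.10 thinned; EPS8, 0.15 thinned; AGR2, 0.10 depth-weighted and 1.13 without cluster 7; APOA1, -0.22, and CLEC3B, -0.36, without mixed clusters. UPTI, at -0.94, was at 0.68 depth-weighted and 1.94 without cluster 7. Against library 1 epithelium they turned for ACTA2 (-0.48) and TAGLN (-0.055) without doublets, GALNT15 (-0.31) thinned, and ACTA2 (-1.17), COL1A2 (-0.49) and TAGLN (-0.81) without members in mixed clusters. COL1A2 was among the collagen genes limited in the choice of library 1 epithelium. The cause of the turned signs was not tested. Fewer genes are measured with a higher UMI minimum or after thinning, and depth limits the 64 library 1 and 246 low barcodes most.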

Other observations

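Other surface and signalling genes of the members are given here as values. IGF1R, the receptor of insulin-like growth factors, was at 297 CPM with a UMI in 72.1% of members, against 542 CPM in the other barcodes of library 2. FGFR2, a receptor of fibroblast growth factors in epithelium, was at 206 CPM against 154 CPM, and at 18.8 CPM in collagen-rich barcodes. MUC1, a mucin of the apical surface, was at 18.1 CPM in members and 7.87 CPM in the other barcodes. The estrogen sulfotransferase SULT1E1 was at 2.41 CPM in members and 21.5 CPM in collagen-rich barcodes. CTSL, a lysosomal protease, was at 523 CPM in members and 358 CPM in collagen-rich barcodes. These levels were not particular to members. The ACP5-rich barcodes low in the 4 genes had 317 CPM of IGF1R, 263 of FGFR2, 34.6 of MUC1 and 632 of CTSL. GALNT15-positive epithelium had 289, 187, 19.0 and 511 CPM in the same order. SULT1E1 had 0 UMIs in the low barcodes and 2.96 CPM in GALNT15-positive epithelium.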
